A study of Saccharomyces cerevisiae with 4 samples.

Results

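The genes described here encode proteins of the large subunit of the cytosolic ribosome in budding yeast, Saccharomyces cerevisiae. They are the genes RPL1A to RPL33B that lie outside chromosome X, matched by their systematic names, and they number 57 of the 7126 features in the count table. All 57 are found on 13 of the nuclear chromosomes, 36 have an intron between their counted exons, and 49 belong to a pair of similar copies (A and B). Poly(A)-selected RNA was sequenced from a wild-type strain (MH1006) and from a strain with the ulp1-I615N allele (MH1018), with 2 libraries of each. ULP1 encodes a protease that matures the small modifier protein SUMO and removes it from its targets. Both strains are MATa and share the alleles ura3-52 and trp1-289, a leu2 allele with mutations 3 and 112, and ade2-delta, ade3-delta and lys1::kanMX4. Both were grown in YPD, a rich glucose medium, at 30°C to mid-log phase. Each genotype is represented by 1 strain, and the labels do not tie replicates to separate cultures. The p-values given here reflect how far these libraries differ from each other, and that spread may be technical.

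Each large subunit contains ribosomal RNA and one copy of nearly every protein of its set, so yeast cells in fast growth need these proteins in like amounts. Most of the genes were kept in duplicate after an ancient duplication of the genome. Their promoters are commonly bound by Rap1 with Fhl1, Ifh1 and Sfp1, and a few by Abf1, and their transcription is known to follow nutrient signals through the TOR and protein kinase A pathways.

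Library totals ran from 13244131 to 26723470 counted fragments, and the genes described here had from 109 to 121713 fragments in a library. ULP1 itself was counted 1118 and 1213 times in wild type, against 1116 and 2061 times in the mutant. A point mutation need not change that number, so it does not check the labels. ADE2 and ADE3 are labelled as deleted, yet ADE2 had at least 3116 fragments and ADE3 at least 1368 in every library. LYS1 had 4 or 5. Chromosome X held 5.58% of the fragments in each wild-type library but 9.13% and 9.16% in those of the mutant, so the ulp1 allele and the raised chromosome X cannot be told apart in this comparison.

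The comparison asks how the messages of these proteins differ between the mutant and its wild type. Nearly all of them were lower in the mutant, by a similar amount. Of 57 genes, 54 fell, 0 rose and 3 (RPL10, RPL15B and RPL33A) were not called, where 24.3% of all tested features were lower and 26.4% higher. Calls are from edgeR's quasi-likelihood test at an adjusted p under 0.05, with Benjamini-Hochberg adjustment over the 6139 tested features. All 57 genes passed the filter on low counts. In bulk RNA of a culture, fewer cells with these messages and fewer messages per cell cannot be told apart. The median log2 fold change of the genes was -0.45, which is a level 26.9% lower, and that of all tested features was 0.010. The fold changes were close to each other: 49 of 57 lay between -0.65 and -0.35, and the middle of the distribution ran from -0.52 to -0.43 (quartiles). For 10 genes the level was at least 1.5-fold lower. Scaling by library totals alone moved the median over all features up to 0.14. It changed the calls from 1618 higher and 1489 lower to 2192 higher (35.7%) and 855 lower (13.9%). The median of the large-subunit genes was then -0.32, and 52 of them were lower.

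Replicates 1 and 2 of the wild type spent 8.34% and 8.76% of their fragments on these genes, and those of the mutant 6.48% and 6.96%. The mean share in the mutant was 0.786 times that in wild type. An exact permutation test of 2 libraries against 2 cannot pass a threshold of 0.05, so no p is given for the share. Both mutant libraries lay below both wild-type libraries for 54 of the 57 genes, against 36.0% of all tested features. The libraries numbered 2 were a little higher than those numbered 1 in both genotypes: 53 of 57 genes were higher in wild type replicate 2 than in replicate 1 (median log2 difference 0.11), and 52 of 57 were higher in mutant replicate 2 than in mutant replicate 1 (median 0.12). Between libraries of the same number the median difference of the mutant from wild type was -0.46 in replicate 1 and -0.46 in replicate 2.

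**Figure D1:**
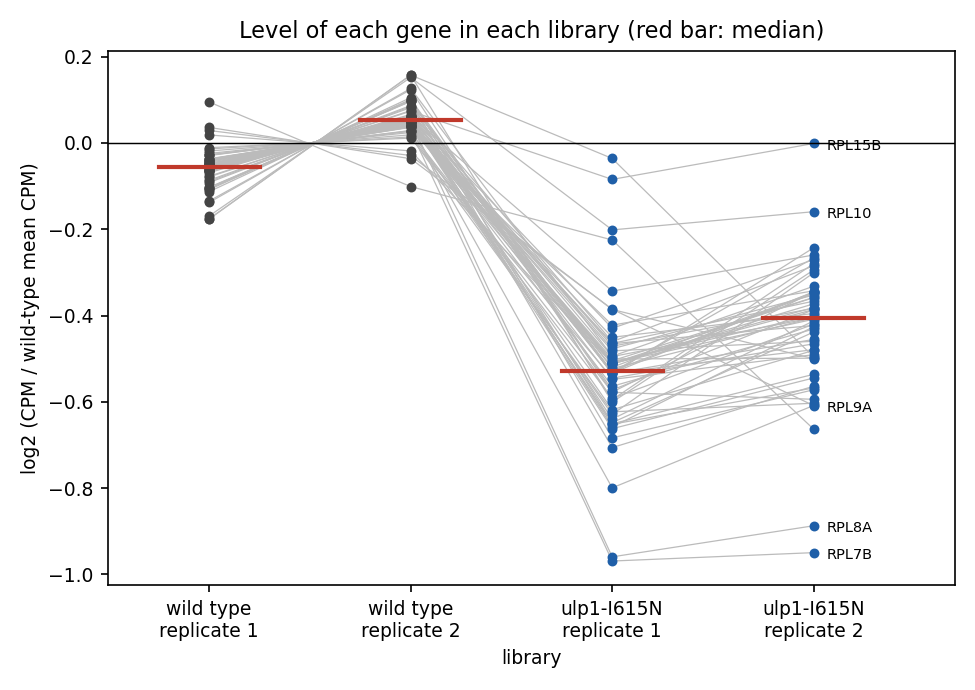
Level of each of the 57 genes in each library, as log2 of its scaled count (CPM) over its wild-type mean; each line is a gene and each red bar a library's median. The wild-type medians were -0.056 and 0.054 and the mutant medians -0.53 and -0.40. RPL7B and RPL8A lie at the bottom in both mutant libraries. RPL15B and RPL10 lie at the top in mutant replicate 2, while RPL33A lies above them in mutant replicate 1, at -0.036.

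Of the 8 proteins made from a single gene, 7 had a lower message and RPL10 was not called. These 7 are among the 54 lower genes of all 57, where 24.3% of all tested features were lower. Positions are given in sacCer3 from start to stop codon, introns included. RPL3 (YOR063W, chrXV:444686-445849), whose protein reaches close to the peptidyl transferase centre, had 5916 and 6351 CPM in wild type, against 3996 and 4395 in the mutant (6134 ± 308 and 4196 ± 283, SD, n = 2 each). CPM here are counts scaled to a common effective library size. The groups were well apart, with a log2 fold change of -0.55 ± 0.10 SE (edgeR quasi-likelihood test, adjusted p = 0.000274). RPL5, whose protein enters the assembling subunit bound to the smallest of its ribosomal RNAs, had 4064 and 4171 CPM in wild type, against 2732 and 3077 in the mutant, at -0.50 ± 0.09 (edgeR adjusted p = 0.000373). RPL32 had the highest level per kilobase of all 57 genes, 6589 CPM per kilobase in wild type (SD 235, n = 2). Its CPM were 2524 and 2655 in wild type, against 1795 and 2034 in the mutant, with a log2 fold change of -0.44 ± 0.09 (edgeR adjusted p = 0.000862).

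RPL25, whose protein sits at the exit of the peptide tunnel and is contacted by the signal recognition particle, had 1739 and 2079 CPM in wild type, against 1264 and 1572 in the mutant. The groups did not overlap, and the log2 fold change was -0.43 ± 0.12 (edgeR adjusted p = 0.00958). Without mutant replicate 1 it was -0.28 and not called (edgeR adjusted p = 0.0595). RPL30, whose protein represses the splicing of its own transcript, had 1356 and 1567 CPM against 1008 and 1235, at -0.38 ± 0.10 (edgeR adjusted p = 0.00929). Without mutant replicate 1 it was -0.24 and not called (edgeR adjusted p = 0.0877). RPL29, which encodes a small protein that yeast can live without, had 430.4 and 447 CPM in wild type, against 284 and 356 in the mutant. Its groups did not overlap either, with a log2 fold change of -0.45 ± 0.09 (edgeR adjusted p = 0.00202), or -0.30 without mutant replicate 1 (edgeR adjusted p = 0.00709). RPL28, the gene in which cycloheximide resistance arises by mutation, was counted in few fragments, with 67.8 and 65.1 CPM in wild type, against 50.8 and 47.0 in the mutant, and its log2 fold change was -0.45 ± 0.08 (edgeR adjusted p = 0.000272).

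RPL10 (YLR075W, chrXII:282927-283592) was not called. Its protein joins the subunit late, in the cytoplasm, and is needed before the subunits can pair. RPL10 had 1378 and 1721 CPM in wild type, against 1347 and 1387 in the mutant, so that mutant replicate 2 lay above wild type replicate 1 and the groups overlapped. The log2 fold change was -0.18 ± 0.10 (edgeR adjusted p = 0.148). Without wild type replicate 1 it was -0.35 and called lower (edgeR adjusted p = 0.00214), and without wild type replicate 2 it was -0.012.

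The way fragments were counted sets what some of these levels can show. Strand was ignored, and a fragment that touched exons of more than 1 feature was not counted. Exons of 9 of the 57 genes (15.8%) overlap another annotated feature, against 19.6% of all features in the table. In RPL22A the overlap with YLR062C covers 354 of 366 exon bases (96.7%), in RPL28 the overlap with YGL102C covers 89.1%, and in RPL33A the overlap with YPL142C covers 88.0%. These 3 genes were counted at 58.6, 148 and 25.3 CPM per kilobase in wild type, while the 48 genes without overlap had a median of 3242. Their counted levels therefore come from a small stretch of exon and cannot be read as the level of the message. The overlaps in RPL7B, RPL8B, RPL10, RPL12A and RPL12B cover from 49.0% to 62.4% of the exon bases, and in RPL21A they cover 8 bases. All but the one in RPL21A are on the opposite strand. Without these 9 genes, a comparison added after the data were seen, 47 of 48 genes were lower, with a median of -0.45. Of all tested features 24.3% were lower.

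**Figure D2:**
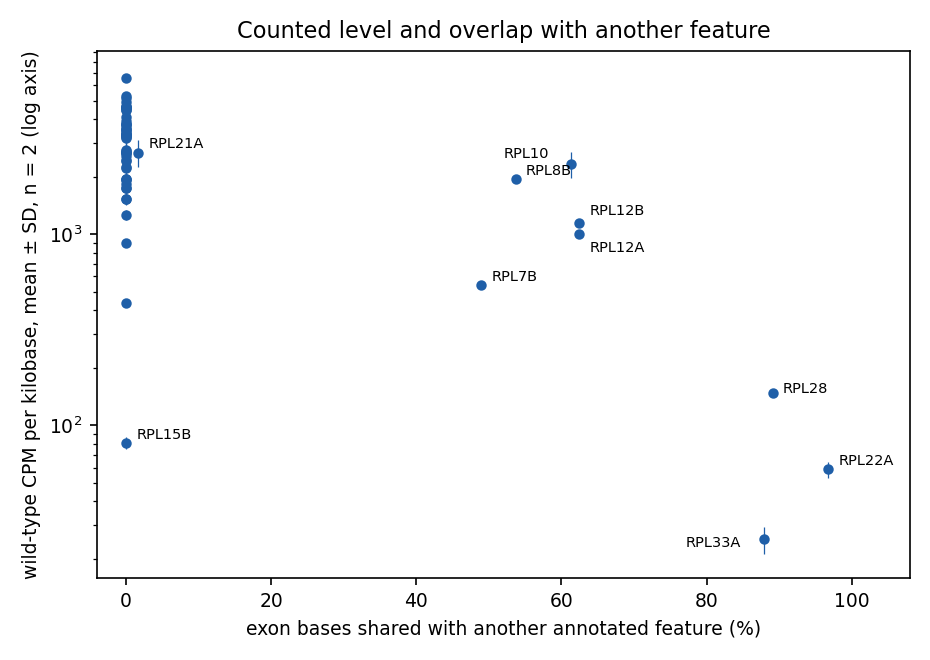
Wild-type level per kilobase (mean and SD of 2 libraries, log axis) against the percentage of exon bases shared with another annotated feature. RPL22A, RPL28 and RPL33A, at 88.0% to 96.7% overlap, were counted at 25.3 to 148 CPM per kilobase; RPL15B has no overlap and was counted at 80.5.

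RPL22 and RPL33 were affected on one copy each. RPL22 is dispensable for growth, and its protein inhibits splicing of the RPL22B transcript. RPL22A had only 344 and 363 fragments in wild type, against 257 and 375 in the mutant (22.9 and 20.0 CPM, against 18.4 and 13.5). It was called lower at -0.46 ± 0.15 (edgeR adjusted p = 0.0179), but was not called without mutant replicate 2 (-0.22, edgeR adjusted p = 0.285). RPL22B had 163 and 159 CPM in wild type, against 113 and 121 in the mutant, a clear separation at -0.46 ± 0.06 (edgeR adjusted p = 3.8e-05). RPL33A had from 109 to 166 fragments in a library, 7.26 and 9.14 CPM in wild type, against 8.0 and 5.81 in the mutant, with overlapping groups (-0.32 ± 0.20, edgeR adjusted p = 0.205). Its log2 fold change ran from -0.51 to -0.047 with 1 library left out, and it was called in none of these 4 fits.

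Sequence shared between copies also limits the counts, because fragments that align to several places were not counted. Coding identity within the 24 pairs described here ran from 78.9% (RPL22) to 99.4% (RPL1). In RPL1A and RPL1B only 19.01% of 50-base windows occur once in the genome, and in RPL4A and RPL4B 27.3%. Of the 57 genes, 21 had only unique 50-base windows, and 8 had fewer than 50% unique ones. The 17 genes with unique windows and no overlap, a set added after the data were seen, were all lower with a median of -0.45. They are part of the 54 lower genes, and 24.3% of all tested features were lower. Across the 48 genes without overlap, the log2 fold change had a Spearman's rho of 0.067 with the wild-type level per kilobase and of 0.0076 with the share of unique windows. These are descriptions over genes measured in the same 4 libraries.

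In 22 of the 24 pairs both copies were lower, and the median absolute difference in log2 fold change between A and B was 0.11. Taken singly, 54 of all 57 genes were lower, against 24.3% of all tested features. The 95% interval of the difference, taken from both standard errors as if independent and not adjusted for the number of pairs, left out 0 in 5 pairs (RPL15, RPL7, RPL8, RPL9 and RPL16) and held 0 in 19. Among the 18 pairs without overlap in either copy it left out 0 in 3 (RPL9, RPL15 and RPL16). Both copies are measured in the same libraries, so the ratio of A to B was also compared within libraries with limma, a comparison added after the data were seen. Its 95% interval, also unadjusted, left out 0 in 12 of the 24 pairs, the same 5 among them. The 7 further pairs differed by 0.10 to 0.20 on the log2 scale, for example RPL1 (-0.20), RPL13 (-0.16) and RPL27 (0.16). Copy A had the lower log2 fold change in 16 pairs and copy B in 8.

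In the edgeR fit of all libraries, the largest difference among the 24 pairs was in RPL15, where one copy supplies nearly all of the counts. Without mutant replicate 1 the A minus B difference was larger in size for RPL7 (0.60) than for RPL15 (-0.54). RPL15A (YLR029C, chrXII:201976-202590) had 3071 and 3294 CPM in wild type, against 2011 and 2181 in the mutant, and fell by 0.60 on the log2 scale (SE 0.09, edgeR adjusted p = 5e-05). RPL15B (YMR121C, chrXIII:509734-510348) had 46.9 and 52.1 CPM in wild type, against 46.7 and 49.5 in the mutant, so its groups overlapped and it was not called (-0.041 ± 0.085, edgeR adjusted p = 0.718). Its log2 fold change was 0.091 with library totals as the scaling and 0.038 without wild type replicate 2. In these 2 settings RPL10, at -0.046 and -0.012, was nearer to 0. The A minus B difference was -0.56 (95% interval -0.82 to -0.30), and the share of copy A in the pair went from 98.5% and 98.4% in wild type to 97.7% and 97.8% in the mutant.

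RPL7B and RPL8A had the largest falls of the 57 genes. RPL7B (YPL198W, chrXVI:173152-174702) had 391.5 and 407 CPM in wild type, against 204 and 207 in the mutant, a 1.94-fold fall (-0.96 ± 0.06, edgeR adjusted p = 2.3e-08). Its partner RPL7A (YGL076C, chrVII:364335-365996), with 2644 and 2866 CPM against 1979 and 2158, was 1.33-fold lower (-0.41 ± 0.09, edgeR adjusted p = 0.00117). The A minus B difference was 0.55 (95% interval 0.32 to 0.77), and the mutant libraries had the larger share of copy A, 90.7% and 91.3% against 87.1% and 87.6%. In RPL7B the overlap with YPL197C covers 360 of 735 exon bases, and whether it bears on this difference was not tested. In RPL7A and RPL7B only 37.7% of 50-base windows occur once in the genome. Fragments that align to both copies were not counted, so the shares of copy A rest on part of the sequence. RPL8 proteins are needed early in the assembly of the subunit. RPL8A (YHL033C, chrVIII:35255-36025) had 1302 and 1399 CPM in wild type, against 695 and 730.3 in the mutant, a 1.90-fold fall (-0.92 ± 0.08, edgeR adjusted p = 2.35e-07). RPL8B (YLL045C, chrXII:47859-48629), with 1464 and 1541 CPM against 1062 and 1063, was 1.41-fold lower (-0.50 ± 0.07, edgeR adjusted p = 7e-05). The difference was -0.42 (95% interval -0.65 to -0.19). Exons of RPL8B overlap YLL044W over 53.7% of their bases, and whether this bears on the difference was not tested.

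RPL9 and RPL16 also had copies that fell by different amounts. RPL9A had 1937 and 2049 CPM in wild type, against 1145 and 1307 in the mutant (-0.70 ± 0.09, edgeR adjusted p = 1.04e-05). RPL9B had 694 and 758 CPM against 572 and 606 (-0.30 ± 0.07, edgeR adjusted p = 0.00337), and was the least changed of the genes that were called. Here the copy with more counts in wild type fell further, with an A minus B difference of -0.40 (95% interval -0.64 to -0.16). RPL16A had 1254 and 1441 CPM in wild type, against 826 and 912 in the mutant (-0.63 ± 0.09, edgeR adjusted p = 2.85e-05). RPL16B had 2232 and 2432 CPM against 1732 and 1933 (-0.35 ± 0.09, edgeR adjusted p = 0.00422, and 0.0787 without mutant replicate 1). In this pair the copy with fewer counts fell further, and the difference of -0.29 had a 95% interval from -0.55 to -0.02. In the 18 pairs without overlap, the copy with fewer counts in wild type had the lower log2 fold change in 10.

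**Figure D3:**
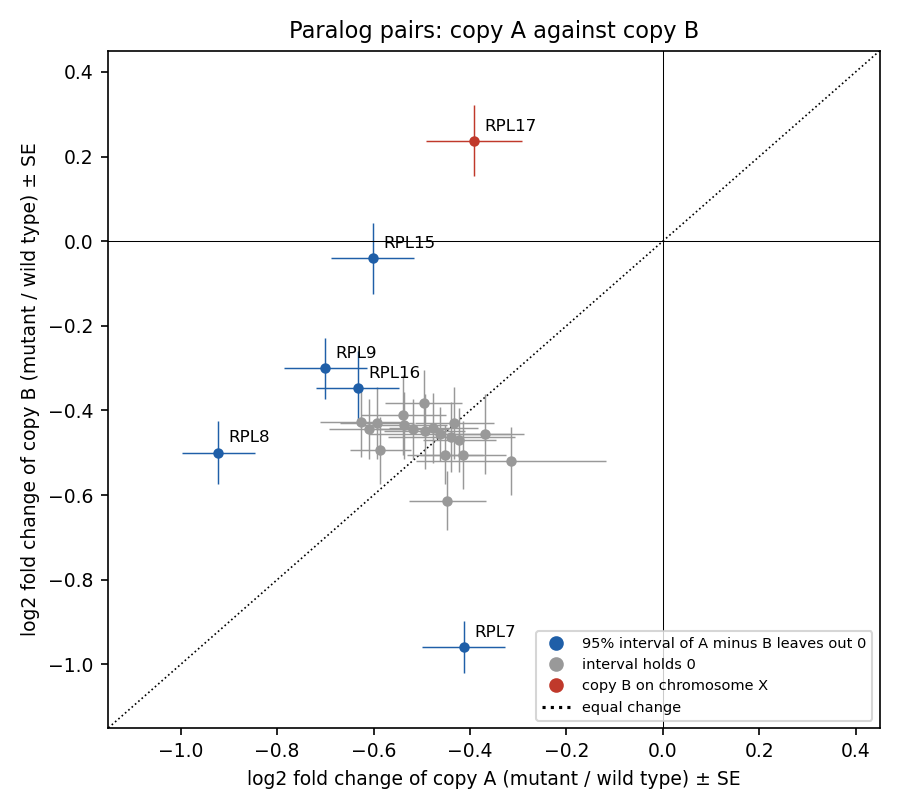
Log2 fold change of copy A (horizontal axis) against copy B (vertical axis) in 25 pairs, with standard errors; the dotted line marks equal change. Grey pairs have a 95% interval of the difference that holds 0, the 5 blue pairs do not, and RPL17 (red), whose copy B is on chromosome X, lies highest.

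The 250 bases that end 100 bases before the start codon are shown for both copies of RPL7, RPL8 and RPL15. In the edgeR fit of all libraries, these 3 pairs differed most among the 24 with both copies outside chromosome X. They are shown because the copies make near-identical proteins under different promoters. The sequences are from the RefSeq R64 assembly (sacCer3), printed 5′ to 3′ on the strand of the gene. Capitals mark letters that match ACCCNNACA, a core of the Rap1 motif, or a form of the Abf1 motif, on either strand.
RPL7A (chrVII:366097-366346, minus strand): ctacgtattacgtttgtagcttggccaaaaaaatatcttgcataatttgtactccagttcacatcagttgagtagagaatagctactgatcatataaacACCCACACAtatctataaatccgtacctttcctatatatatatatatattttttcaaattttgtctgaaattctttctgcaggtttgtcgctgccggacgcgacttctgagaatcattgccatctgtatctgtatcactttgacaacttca
RPL7B (chrXVI:172802-173051, plus strand): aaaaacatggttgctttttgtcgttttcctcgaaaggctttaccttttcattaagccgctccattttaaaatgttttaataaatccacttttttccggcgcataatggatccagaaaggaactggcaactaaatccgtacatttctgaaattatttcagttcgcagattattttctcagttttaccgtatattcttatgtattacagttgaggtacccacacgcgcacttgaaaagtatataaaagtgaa
RPL8A (chrVIII:36126-36375, minus strand): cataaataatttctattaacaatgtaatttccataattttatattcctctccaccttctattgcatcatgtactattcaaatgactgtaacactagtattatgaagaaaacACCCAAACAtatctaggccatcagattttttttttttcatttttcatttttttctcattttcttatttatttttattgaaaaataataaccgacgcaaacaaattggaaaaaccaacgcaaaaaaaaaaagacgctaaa
RPL8B (chrXII:48730-48979, minus strand): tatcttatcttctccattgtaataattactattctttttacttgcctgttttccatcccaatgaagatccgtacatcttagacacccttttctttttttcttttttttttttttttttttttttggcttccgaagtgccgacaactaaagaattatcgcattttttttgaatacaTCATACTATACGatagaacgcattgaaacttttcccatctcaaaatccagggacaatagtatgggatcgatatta
RPL15A (chrXII:202691-202940, minus strand): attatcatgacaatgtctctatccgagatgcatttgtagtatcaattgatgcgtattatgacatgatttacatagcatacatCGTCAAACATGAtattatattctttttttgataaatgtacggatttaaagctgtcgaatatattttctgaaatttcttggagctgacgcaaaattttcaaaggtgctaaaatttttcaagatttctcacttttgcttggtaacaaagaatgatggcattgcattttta
RPL15B (chrXIII:510449-510698, minus strand): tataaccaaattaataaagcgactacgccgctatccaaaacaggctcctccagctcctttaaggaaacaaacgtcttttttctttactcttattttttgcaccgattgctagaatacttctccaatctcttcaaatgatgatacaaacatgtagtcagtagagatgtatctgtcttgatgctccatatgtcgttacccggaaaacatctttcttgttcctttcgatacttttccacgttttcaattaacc
Rap1 letters stood in the windows of RPL7A and RPL8A, Abf1 letters in those of RPL8B and RPL15A, and neither in those of RPL7B and RPL15B. A match is a description of the letters and not a site, and a window without one says nothing about the factor.

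Over the 500 bases before the start codon, Rap1 letters occurred before 24 of the 57 genes (42.1%) and before 5.48% of 5986 protein-coding genes. Abf1 letters occurred before 9 genes (15.8%, against 22.7% of all), GACGC, a core of the Fhl1 motif, before 25 (43.9% against 30.4%), and the stress element AGGGG before 15 (26.3% against 34.1%). Each motif was searched on both strands, and overlaps between motifs were allowed. The median log2 fold change was -0.45 in the 24 genes with Rap1 letters and -0.45 in the 33 genes without.

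RPL17A and RPL17B, whose protein lines the tunnel exit, are split between chromosome XI and chromosome X. RPL17A (YKL180W, chrXI:109269-110129) had 1429 and 1639.9 CPM in wild type, against 1062 and 1275 in the mutant, and was lower (-0.39 ± 0.10, edgeR adjusted p = 0.00564, and 0.0604 without mutant replicate 1). RPL17B, which is not one of the 57, had 1138 and 1296 CPM in wild type, against 1384 and 1485 in the mutant, and was higher (0.24 ± 0.08, edgeR adjusted p = 0.0295). The call of RPL17B was lost without wild type replicate 1 (0.13, edgeR adjusted p = 0.297) and without mutant replicate 2 (0.18, edgeR adjusted p = 0.195). The A minus B difference of -0.63 had a 95% interval from -0.91 to -0.35. Summed over both copies, RPL17 had 2752 ± 261 CPM in wild type and 2603 ± 222 in the mutant (SD, n = 2 each), a log2 ratio of -0.080.

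Summing the copies gives the counted message level behind each of the 33 proteins. The summed log2 ratio of mutant to wild type was below 0 for all 33, with a median of -0.47, and 30 of them lay between -0.65 and -0.35. The exceptions were RPL17 at -0.080 and RPL10 at -0.18, which were closer to 0, and RPL8 at -0.68. These sums are descriptions without a test, and those of proteins with an overlapped copy count only part of the message. The same holds for pairs with shared sequence, such as RPL1 and RPL4, because fragments that align to both copies were not counted.

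Genes were also grouped by the place of their protein in the subunit, without a test between the groups. The counts below are to be read beside those of all 57 genes, of which 54 were lower with a median of -0.45. Of all tested features 24.3% were lower. RPL11A and RPL11B, whose protein travels with RPL5 and the smallest ribosomal RNA, had log2 fold changes of -0.52 ± 0.08 and -0.44 ± 0.07 (edgeR adjusted p = 6.01e-05 and 0.000142). Their CPM in wild type were 1341 and 1449 for RPL11A and 995 and 1051 for RPL11B, and in the mutant 954 and 993 for RPL11A and 741 and 763 for RPL11B. In both copies each mutant library was below each wild-type library. RPL4A and RPL4B, whose protein sends a loop into the peptide tunnel, were at -0.41 ± 0.09 and -0.51 ± 0.08 (edgeR adjusted p = 0.00133 and 0.000124). RPL4A had 3706 and 3968 CPM in wild type, against 2780.3 and 2975 in the mutant, and RPL4B had 1579 and 1756 against 1152 and 1196. All 8 genes at the rim of the tunnel exit (RPL17A and the genes of RPL19, RPL25, RPL26 and RPL31) were lower, with a median of -0.43, as were 9 of 10 genes of proteins on the face toward the small subunit (RPL2, RPL10, RPL19, RPL23, RPL24 and RPL30), also with a median of -0.43. The 7 genes of proteins that yeast can live without (RPL22, RPL24, RPL29 and RPL31) were all lower, with a median of -0.46. RPL5, RPL11A and RPL11B had a median of -0.50, and RPL12A and RPL12B, whose protein lies at the base of the stalk that binds translation factors, one of -0.54.

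Other genes named for the size of their change were RPL1A, RPL27B and RPL26A. RPL1A, whose protein forms a mobile stalk beside the exit site for tRNA, had 1107 and 1287 CPM in wild type, against 745 and 805 in the mutant (-0.63 ± 0.08, edgeR adjusted p = 2.78e-05). RPL27B had 978 and 997 CPM against 641 and 650.1 (-0.61 ± 0.07, edgeR adjusted p = 5.13e-06). RPL26A, another gene of the tunnel exit, had 698 and 787 CPM against 539.7 and 609.6 (-0.37 ± 0.08, edgeR adjusted p = 0.00185). The groups of all 3 were separate. The 36 genes with an intron had a median of -0.45 with 35 lower, and the 21 without an intron in their counted exons had a median of -0.50 with 19 lower. Of all 57 genes 54 were lower, against 24.3% of all tested features. The choice of genes described one by one took in all 3 that were not called, so the other 28 were all lower. In each of the 28 both mutant libraries lay below both wild-type libraries, which held for 36.0% of all tested features.

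Genes that work with these proteins were described in the same fit, as counts and medians without a test of the lists. Of the 16 remaining large-subunit genes outside chromosome X, RPL34A to RPL43A, 14 were lower and 0 higher, with a median of -0.43, against the same 24.3% of tested features that were lower. RPL37A and RPL37B were not called (-0.23 and -0.22). RPL36B was called (edgeR adjusted p = 0.0482) though its groups overlapped. It had 16.1 and 12.06 CPM in wild type, against 12.07 and 8.56 in the mutant. RPL43A, also called, had from 81 to 134 fragments in a library. The large-subunit genes of chromosome X were at 0.24 (RPL17B), 0.28 (RPL39, not called) and 0.28 (RPL43B). RPL39 had from 87 to 169 fragments in a library. Of 51 small-subunit genes outside chromosome X 48 were lower and 0 higher, with a median of -0.47. A list of 12 genes, drawn up for dedicated chaperones and escorts of large-subunit proteins, had 9 lower and 0 higher, with a median of -0.47. The list also holds TSR4, whose protein is a chaperone of the small-subunit protein Rps2. TSR4 (-0.19), JJJ1 (-0.087) and ALB1 (-0.065), the last on chromosome X, were not called. ARX1, which escorts the subunit out of the nucleus, was at -0.81 ± 0.06 (edgeR adjusted p = 1.79e-07), SYO1, the importer of Rpl5 and Rpl11, at -0.75 ± 0.07 (edgeR adjusted p = 7.97e-07), RRB1, the chaperone of Rpl3, at -0.68 ± 0.06 (edgeR adjusted p = 7.66e-07), and ACL4, the chaperone of Rpl4, at -0.44 ± 0.07 (edgeR adjusted p = 9.03e-05). SQT1, the chaperone of Rpl10, was at -0.31 ± 0.06 (edgeR adjusted p = 0.000678).

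The list of regulators of ribosomal protein gene transcription held 17 genes, of which 7 fell and 1 rose, where 24.3% of all tested features were lower and 26.4% higher. Its median was -0.13, against 0.010 for all. The other 9 were not called. RAP1 was at -0.42 ± 0.06 (edgeR adjusted p = 6.54e-05), FHL1 at -0.39 ± 0.07 (edgeR adjusted p = 0.000174) and SFP1 at -0.30 ± 0.06 (edgeR adjusted p = 0.00099), while IFH1, the coactivator bound by Fhl1, was at -0.24 ± 0.09 and not called (edgeR adjusted p = 0.0506). ABF1 was at -0.045 ± 0.065 (edgeR adjusted p = 0.599). TOD6, a repressor of ribosome assembly genes, was the lowest of the list at -0.90 ± 0.07 (edgeR adjusted p = 7.17e-08). DOT6, from the same list, was at -0.011 ± 0.086 and not called (edgeR adjusted p = 0.927). The gene that was higher, TOR1, lies on chromosome X (0.47 ± 0.06, edgeR adjusted p = 2.05e-05).

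**Figure D4:**
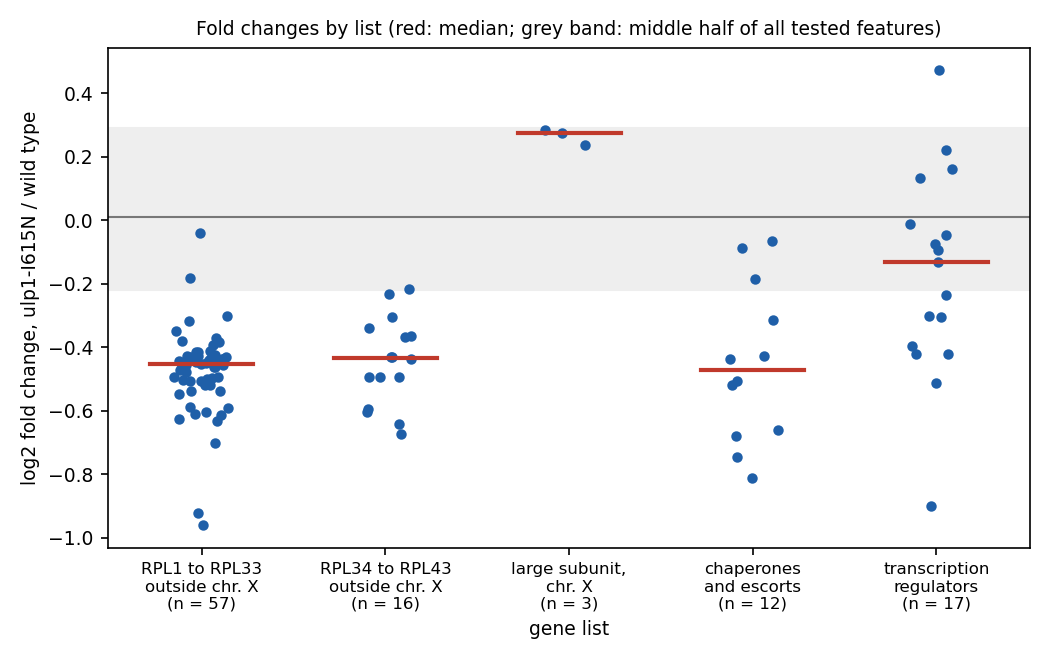
Log2 fold changes of the genes in each list (points, vertical axis) with the list median in red; the grey line and band are the median and quartiles of all tested features, 0.010 and from -0.22 to 0.29. RPL1 to RPL33 (n = 57) and RPL34 to RPL43 (n = 16) have medians of -0.45 and -0.43, the chaperones -0.47, the regulators -0.13 and the large-subunit genes of chromosome X 0.28.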

How the data were processed

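Poly(A)-selected RNA from 2 libraries of each strain was sequenced after a strand-specific library preparation, per the labels' protocols. The authors deposited raw counts of fragments for each gene, produced with featureCounts 2.0.0 on read pairs, per the file headers, with the strand, multi-mapping and overlap options unset. Fragments that align to several places or touch more than 1 feature were therefore not counted. HISAT2 2.1.0, Subread 2.0.0 and sacCer3 appear in the submitters' processing notes. No annotation version is named in the sources used here. All 57 genes had the same start and end in RefSeq R64.

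Features were filtered (minimum count 10, minimum total 15), scaled by TMM and tested with edgeR 4.0.16 in R 4.3.3 (quasi-likelihood F test, robust, no replicate block, Benjamini-Hochberg adjustment, threshold 0.05), which left 6139 features. Standard errors were derived from F statistics. DESeq2 1.42.0, limma 3.58.1 (voom), other scalings, thinning, no filter, a replicate block and each library left out were alternatives. Ratios of A to B within libraries were compared with limma across the pairs. The test was tested on simulated data of this comparison over 6139 features, of which 200 were changed. It recovered 42.0% of genes changed 1.25-fold, 84.0% at 1.5-fold, 96.0% at 2-fold and 100% at 4-fold, 50 genes each. Far more features were called in the data (1489 lower and 1618 higher), so these rates need not hold there. Replicates differed beyond sampling noise (chi-square per degree of freedom 9.72 in wild type and 8.83 in the mutant) and were kept apart. A count of 0 allows up to 0.227 CPM in the shallowest library (3 counts, counting error only).

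The genes and lists were chosen with earlier results of these data known. Named in full are the single-copy genes, the 6 lowest and 6 highest fold changes, the 5 pairs with the largest difference, and the genes of RPL11, RPL22, RPL4 and RPL17; genes of the context lists named in the text were picked after their values were seen.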

Additional observations from a re-analysis of the deposited data

How the results depend on the processing

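The number of large-subunit genes called lower was 50 to 55 with 1 library left out, and 52 to 55 under the other scalings, filters, tools, thinning and the replicate block; 0 were called higher in each of these. The replicate block gave 55 lower and added the call of RPL10 (-0.17, edgeR adjusted p = 0.00332). The labels state no pairing, though the library names share a letter within each replicate number. With 2 pairs, the numbers were not taken to pair the libraries. Deviations of same-numbered libraries had a correlation of 0.081 over 6139 features. Most of the 57 genes were nonetheless higher in replicate 2 in each genotype, so a replicate effect shared by these genes was not excluded. The median log2 fold change ran from -0.53 to -0.41 with 1 library left out, and moved to -0.32 with library totals only. Restricting the list to genes with unique windows and no overlap, chosen after seeing the data, left 17 genes, all called lower, because fewer genes were counted. RPL15B turned to 0.091 with library totals only (edgeR adjusted p = 0.426) and ran from -0.13 to 0.038 with 1 library left out, above 0 without wild type replicate 2 (edgeR adjusted p = 0.805); the cause was not tested. The share of fragments in the mutant stayed between 0.758 and 0.817 times that in wild type, and the median difference within pairs between 0.10 and 0.14. The interval left out 0 in 4 or 5 pairs with 1 library left out or with DESeq2, and in 12 with the ratio of A to B taken within libraries, added after seeing the data. With DESeq2, RPL25 (adjusted p = 0.0817) was no longer called, and with library totals only RPL22A was not (edgeR adjusted p = 0.0958). RPL33A and RPL22A rest on few counted fragments, with 88.0% and 96.7% of their exon bases shared with another feature.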

Other observations

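The features that overlap these genes were themselves counted in few fragments. YPL142C, over RPL33A, had 110 and 128 fragments in wild type, against 70 and 140 in the mutant, and YGL102C, over RPL28, had 119 in both wild-type libraries, against 75 and 140. YLR062C, over RPL22A, had 44 and 42 in wild type, against 30 and 42. For RPL33A these numbers were close to those of the gene itself, 109 and 166 in wild type, against 112 and 161 in the mutant. YLL044W, over RPL8B, had 0 fragments in both wild-type libraries.

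The labelled mating type was checked by its markers. The 7 markers of mating type a held 0.116% of the fragments in wild type, the same in both libraries, against 0.123% and 0.128% for the mutant. The 4 markers of mating type alpha held far less, 0.0039% and 0.0037% in wild type, against 0.0069% and 0.0072% in the mutant. Of these STE3 (0.59, edgeR adjusted p = 0.0277) and SAG1 (0.84, edgeR adjusted p = 2.06e-06), which lies on chromosome X, were higher, and the other 2 were not called. Among the a markers, ASG7 on chromosome X (1.37, edgeR adjusted p = 5.61e-06) and AGA2 (0.51, edgeR adjusted p = 0.00038) were higher. STE2 was lower (-0.18, edgeR adjusted p = 0.027), and the other 4 a markers were not called.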
